A study of Mus musculus with 161 samples.

Results

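The 10 genes described here encode transcription factors and 1 inhibitor of transcription factors that steer the choice between granulocyte and monocyte fate: Cebpa, Cebpb, Cebpd, Cebpe, Cebpg, Spi1, Gfi1, Runx1, Zeb2 and Id2. They were taken by name, and all 10 were found among the 43280 gene symbols of the expression table. Their transcripts were followed in single cells of untreated C57BL/6 mice in 3 sorted populations. These were 66 common monocyte progenitors of the bone marrow (cMoP; Lin-, CD117+, CD115+, CD135-, Ly6C+), 57 bone marrow (BM) monocytes, called marrow monocytes below, from the same gate without CD117, and 38 blood monocytes (CD115+, CD11b+, high Ly6C). Each cell was captured and its cDNA amplified from oligo(dT) primers on the Fluidigm C1 microfluidic system, and the deposited values are TPM, in which each library is scaled to a fixed total and each gene to its transcript length. No label names an animal, so each population counts as 1 sample, the cells are not replicates, and no difference between populations carries a test or a replicate check.

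C/EBP proteins bind DNA as dimers through a basic leucine zipper. C/EBPα, encoded by Cebpa, opens the granulocyte and monocyte programme in progenitors, C/EBPβ sustains mature monocytes and C/EBPε drives late neutrophil granule genes. PU.1, encoded by Spi1, activates the receptor and effector genes of myeloid cells, and GFI1, a zinc finger repressor that favours the neutrophil branch, antagonises PU.1. RUNX1 founds the definitive blood lineages, ZEB2 is a zinc finger factor of the monocyte and dendritic branches, and ID2 is a helix-loop-helix protein without a DNA-binding region that sequesters E proteins.

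Promoter sequence is shown for 5 genes of primary granules and for the 2 members whose promoter holds a C/EBP letter pattern. The 250 bases before the RefSeq transcription start (build GRCm38.p6, first listed start of each gene) were found for 7 of the 10 members and 5 of the 6 granule genes. The capitals mark GAGGAAG, a core of PU.1 sites, and TTGCNNAA, a pattern of C/EBP sites, each on either strand, 5′ to 3′ along the gene. The windows are chr11:87793534-87793783 (plus strand) for Mpo, chr10:79886062-79886311 (plus strand) for Elane, chr10:79879417-79879666 (plus strand) for Prtn3, chr14:56102575-56102824 (minus strand) for Ctsg, chr7:88277835-88278084 (plus strand) for Ctsc, chr5:107725806-107726055 (minus strand) for Gfi1 and chr2:45117443-45117692 (minus strand) for Zeb2.
Mpo: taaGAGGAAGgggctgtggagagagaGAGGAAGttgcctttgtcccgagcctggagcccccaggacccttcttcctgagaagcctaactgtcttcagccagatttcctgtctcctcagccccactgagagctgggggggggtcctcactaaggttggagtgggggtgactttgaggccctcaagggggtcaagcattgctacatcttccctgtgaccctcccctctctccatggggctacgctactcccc
Elane: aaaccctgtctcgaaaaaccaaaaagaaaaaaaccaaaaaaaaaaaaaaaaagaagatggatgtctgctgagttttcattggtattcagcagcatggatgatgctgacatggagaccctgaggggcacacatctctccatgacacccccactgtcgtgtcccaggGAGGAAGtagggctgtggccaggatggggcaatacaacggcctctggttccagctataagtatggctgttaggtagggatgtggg
Prtn3: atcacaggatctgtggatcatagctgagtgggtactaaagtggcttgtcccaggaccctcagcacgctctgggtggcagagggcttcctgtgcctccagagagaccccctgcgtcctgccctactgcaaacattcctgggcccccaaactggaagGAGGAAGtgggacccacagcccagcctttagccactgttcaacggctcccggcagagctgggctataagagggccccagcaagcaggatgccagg
Ctsg: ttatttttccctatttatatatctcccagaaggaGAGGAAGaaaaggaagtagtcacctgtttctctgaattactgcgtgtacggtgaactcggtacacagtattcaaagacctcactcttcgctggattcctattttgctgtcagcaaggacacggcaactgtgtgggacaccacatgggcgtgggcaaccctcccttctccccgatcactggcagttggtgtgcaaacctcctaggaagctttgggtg
Ctsc: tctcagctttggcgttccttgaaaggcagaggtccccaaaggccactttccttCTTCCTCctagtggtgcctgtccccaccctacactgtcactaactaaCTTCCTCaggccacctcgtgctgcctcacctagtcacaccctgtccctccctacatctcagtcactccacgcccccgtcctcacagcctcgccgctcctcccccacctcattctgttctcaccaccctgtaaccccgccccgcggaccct
Gfi1: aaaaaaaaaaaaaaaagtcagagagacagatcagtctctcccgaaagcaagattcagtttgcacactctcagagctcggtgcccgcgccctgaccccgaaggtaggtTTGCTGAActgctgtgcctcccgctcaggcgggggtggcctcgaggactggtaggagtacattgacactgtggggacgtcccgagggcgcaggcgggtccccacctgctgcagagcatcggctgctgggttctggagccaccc
Zeb2: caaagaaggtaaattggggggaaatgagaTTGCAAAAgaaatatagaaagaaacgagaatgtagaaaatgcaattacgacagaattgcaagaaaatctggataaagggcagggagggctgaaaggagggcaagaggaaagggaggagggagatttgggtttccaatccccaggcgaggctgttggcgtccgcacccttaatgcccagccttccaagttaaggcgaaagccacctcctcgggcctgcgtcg

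The PU.1 letters stood in all 5 granule promoters that could be read (Mpo, Elane, Prtn3, Ctsg and Ctsc), in 5 of 25 promoters of the monocyte genes described below and in 0 of 7 member promoters, against 10.4% of 27025 promoters of the same length. The C/EBP letters stood in 2 of 7 member promoters, those of Gfi1 and Zeb2, in 0 of 5 granule promoters and in 9.55% of all promoters. RUNX letters (TGTGGT) and GFI1 letters (AAATCA) were in 0 of 7 member promoters, against 14.2% and 12.7% of all. The ZEB letters CACCTG, an E-box, were in those of Gfi1 and Runx1, against 17.1% of all promoters. These matches describe the letters only, and the 5 granule genes that share the PU.1 letters did not share a direction of difference, as the values below show.

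Libraries within a population were uneven, which bears on several members. The median cell had 6661.5 genes above 1 TPM among cMoP, 4719 among marrow monocytes and 4319.5 among blood monocytes. 11 cMoP libraries had over 15% of TPM in mitochondrial genes, and the labels of 6 others name no flow cell, which leaves 49 cMoP libraries outside both sets. The 60 cMoP libraries with a flow cell in the label come from another flow cell and lane than both monocyte populations, so flow cell and the step to marrow monocytes cannot be told apart, while both monocyte populations were run in 1 lane of 1 flow cell. Of the gate's own genes, Kit, which encodes CD117, was above 1 TPM in 39 of 66 cMoP and at or below 1 TPM in all monocytes, while Ly6c2 was above 1 TPM in every cell and Csf1r, which encodes CD115, in 84.8% of cMoP, 80.7% of marrow and 94.7% of blood monocytes. Of 7 basophil and mast cell markers 1, Mcpt8, reached 10% of cMoP, at 18.2%, and 7 were listed at 0 in every monocyte. The B cell markers Cd79a, Pax5 and Vpreb3 were at 0 in every cell, but Ighm was above 1 TPM in 100% of cMoP, 89.5% of marrow monocytes and 68.4% of blood monocytes. Of 8 T and NK cell markers Cd3e, Cd3g, Trac and Ncr1 were at 0 throughout, while Nkg7 was above 1 TPM in 80.3% of cMoP and at 0 in every monocyte. Cd3d was above 1 TPM in 22.8% of marrow and 26.3% of blood monocytes. In all, 3 of the 8 markers reached 10% of cMoP, and 2 reached 10% of each monocyte population. Of 15 neutrophil maturation genes Ngp, Mmp9, Retnlg and S100a9 were at 0 in every cell. Of the 15, 7 reached 10% of cMoP, 7 reached 10% of marrow monocytes and 6 reached 10% of blood monocytes. The most frequent above 1 TPM were Anxa3 in 93.9% of cMoP, Ly6g in 91.2% of marrow monocytes and Cxcr2 in 68.4% of blood monocytes. The summed level of the 15 had a median of 328.8 TPM per cMoP, 748.6 TPM per marrow monocyte and 75.2 TPM per blood monocyte. The part of such transcripts in the results was not tested.

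By mean TPM, Zeb2 was the highest member in cMoP at 263 TPM, followed by Runx1 at 65.8, Id2 at 57.9, Spi1 at 36.1, Cebpa at 15.5 and Cebpg at 13.9 TPM. The place of Id2 rests on the 6 libraries without a flow cell, since over the other 60 cMoP its mean was 11.1 TPM, below Spi1 at 35.1, Cebpa at 15.9 and Cebpg at 14.1 TPM. In marrow monocytes Id2 led at 473 TPM, before Zeb2 at 249.9 and Spi1 at 118 TPM, and in blood monocytes Id2 led at 491 TPM, before Zeb2 at 247 and Spi1 at 140 TPM. Cebpd and Cebpe were the lowest members with any signal in all 3 populations, apart from Gfi1, which was listed at 0 in both monocyte populations. Neighbours in this order, such as Runx1 and Id2 in cMoP, differed by less than the spread over cells, and the ranges of the 3 populations overlapped for each of the 10 members.

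**Figure D1:**
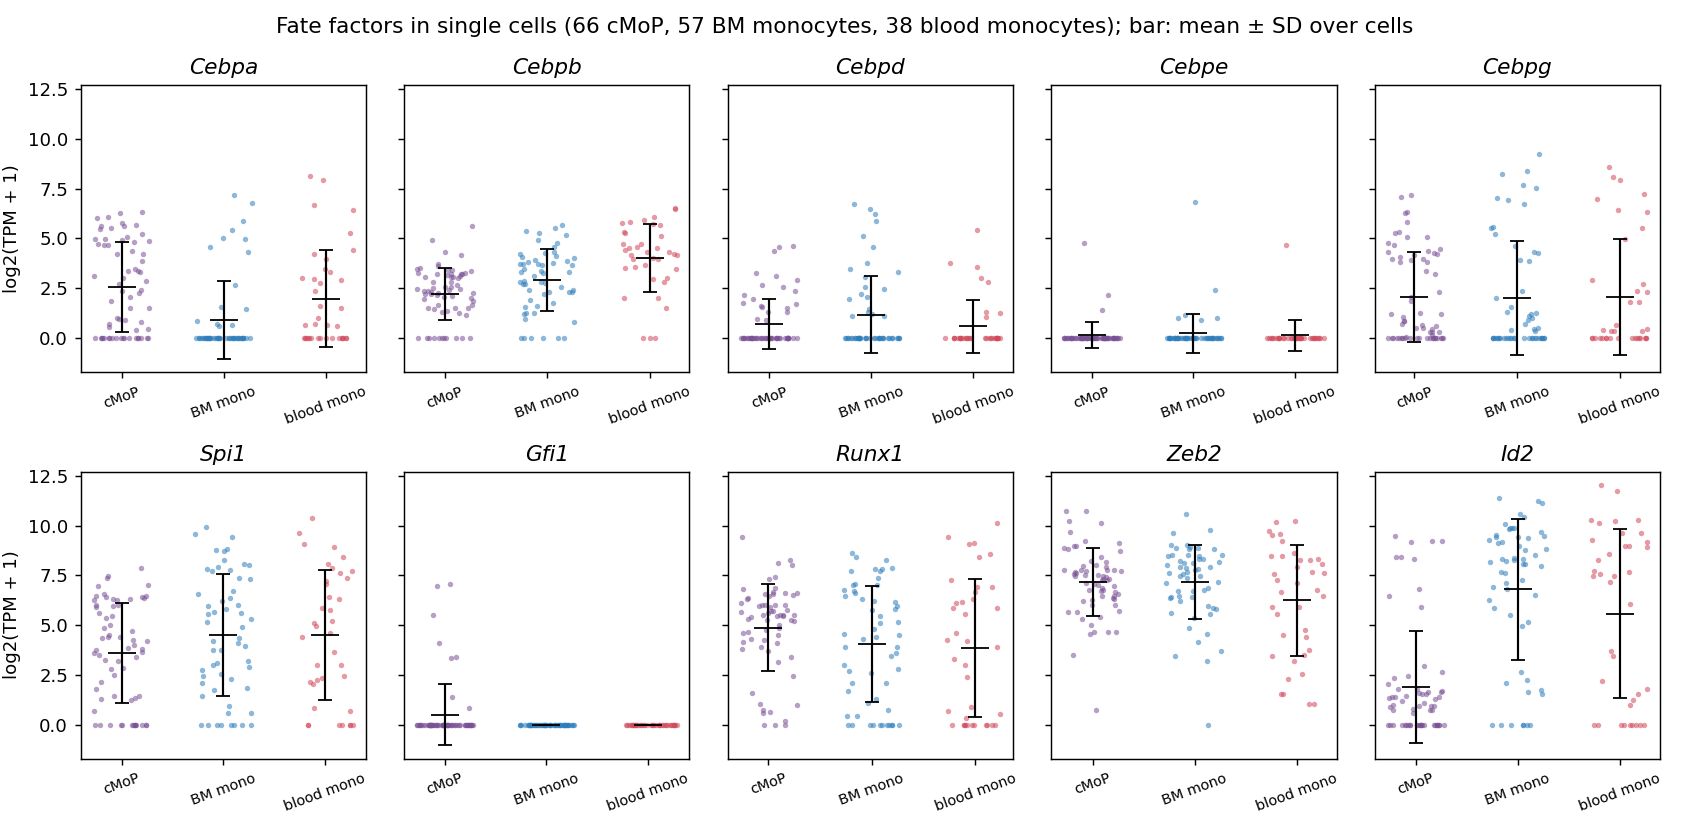
Level of each member on the log2(TPM + 1) scale in every cell of the 3 populations; points are cells and bars the mean ± SD over cells. Id2 has few high cMoP cells and many high monocytes, Cebpb is higher at each later stage, and Gfi1 is above 0 in cMoP only.

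Cebpa (chr7:35119293-35121928, plus strand) was present in most progenitors, in few marrow monocytes and again in about as many blood monocytes as not. Its lowest, median and highest values were 0, 4.24 and 80.7 TPM in cMoP, 0, 0 and 142 TPM in marrow monocytes, and 0, 0.61 and 280 TPM in blood monocytes. It lay above 1 TPM in 60.6% of cMoP (95% exact binomial interval 47.8 to 72.4%), 19.3% of marrow monocytes (10.05 to 31.9%) and 47.4% of blood monocytes (30.98 to 64.2%). The cMoP and marrow intervals do not overlap, but they cover the counting of cells and not animals, and a transcript lost in capture is also listed at 0. The few marrow monocytes with Cebpa could hold a good deal of it, since 8 of the 11 above 1 TPM were above 10 TPM.

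Cebpb (chr2:167688915-167690418, plus strand) was detected at similar shares throughout, at a level that was higher at each later stage. Its lowest, median and highest values were 0, 4.17 and 47.9 TPM in cMoP, 0, 7.65 and 50.3 TPM in marrow monocytes, and 0, 18.1 and 92.9 TPM in blood monocytes. At the limit of 1 TPM the share was 83.3% for cMoP, 86.0% for marrow and 92.1% for blood monocytes. Above 10 TPM these shares were 12.1% of cMoP (5.38 to 22.5%), 42.1% of marrow monocytes (29.1 to 55.9%) and 76.3% of blood monocytes (59.8 to 88.6%). Cebpb thus differed in level between populations while most cells of each carried it.

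Cebpd (chr16:15887286-15891031, plus strand), a C/EBP gene of the acute inflammatory response, was at 0 in the median cell of each population. It lay above 1 TPM in 27.3% of cMoP, 35.1% of marrow monocytes and 21.1% of blood monocytes, with highest values of 23.8, 105 and 42.4 TPM. Cebpe (chr14:54710360-54712174, minus strand) was close to absent. It exceeded 1 TPM in 3 of 66 cMoP, 5 of 57 marrow monocytes and 1 of 38 blood monocytes, and its mean of 2.09 TPM in marrow monocytes rests on 1 cell at 111 TPM, since the next was at 4.28 TPM.

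Cebpg (chr7:35046422-35056573, minus strand) encodes a short C/EBP that lacks an activation domain and pairs with other leucine zipper proteins; it lies next to Cebpa on the same chromosome. Its median was 0.81 TPM in cMoP, 0.30 TPM in marrow monocytes and 0.28 TPM in blood monocytes, while its highest values were 145, 608 and 380 TPM. It was thus listed near 0 in many cells of each population and at a high level in others. In cMoP it differed between the sets of libraries and was above 1 TPM in 1 of the 11 libraries high in mitochondrial TPM, in 6 of the 6 without a flow cell and in 25 of the other 49. The part of these sets in its level was not tested.

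Spi1 (chr2:91082390-91115756, plus strand) was detected in a like share of each population. Its lowest, median and highest values were 0, 13.4 and 231 TPM in cMoP, 0, 19.4 and 967 TPM in marrow monocytes, and 0, 26.7 and 1351 TPM in blood monocytes. The shares of cells above 1 TPM were 77.3%, 80.7% and 76.3%. The medians were higher at each later stage, by far less than the ranges over cells. The means of 36.1, 118 and 140 TPM reflect the high cells of both monocyte populations. Runx1 (chr16:92601466-92826149, minus strand) was broadly present, with medians of 43.7 TPM in cMoP, 19.8 TPM in marrow monocytes and 15.5 TPM in blood monocytes. Its share of cells above 1 TPM was 87.9% (77.5 to 94.6%), 75.4% (62.2 to 85.9%) and 60.5% (43.4 to 75.96%), while its mean was not lower in monocytes, at 65.8, 66.8 and 122 TPM.

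Gfi1 (chr5:107716657-107726036, minus strand) was seen in a few progenitors and was listed at 0 in every monocyte. The 7 cMoP above 1 TPM held 134, 123, 43.9, 16.2, 9.62, 9.34 and 1.60 TPM, and an eighth held 0.77 TPM. That is 10.6% of cMoP (4.37 to 20.6%), against 0 of 57 marrow monocytes and 0 of 38 blood monocytes, where counts of 0 leave room for shares of up to 5.26% and 7.89% (3 cells of each total). None of the 11 cMoP libraries high in mitochondrial TPM exceeded 1 TPM, while 6 of the other 49 and 1 of the 6 without a flow cell did. Of these 7 cells, 7 also held Zeb2 above 1 TPM, 7 Cebpb, 6 Spi1 and 4 Cebpa, but so did 65, 55, 51 and 40 of all 66 cMoP, so these counts say nothing particular about cells with Gfi1.

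Zeb2 (chr2:44983632-45117395, minus strand) was nearly universal. Its lowest, median and highest values were 0.67, 160 and 1735 TPM in cMoP, 0, 194 and 1532 TPM in marrow monocytes, and 1.03, 123 and 1218 TPM in blood monocytes. Above 10 TPM it was listed in 98.5% of cMoP, 94.7% of marrow monocytes and 81.6% of blood monocytes. In cMoP its upper range lay in the libraries high in mitochondrial TPM, with a median of 603 TPM in those 11 against 159.7 TPM in the other 49, and 101.8 TPM in the 6 without a flow cell. Its mean in cMoP without those 17 libraries was 175 TPM, in place of 263 TPM.

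Id2 (chr12:25093799-25097140, minus strand) had the largest log2 difference between progenitors and both monocyte populations of the 10 members. Its lowest, median and highest values were 0, 0.92 and 708 TPM in cMoP, 0, 285 and 2732 TPM in marrow monocytes, and 0, 175 and 4272 TPM in blood monocytes. Above 10 TPM it was listed in 15.2% of cMoP (7.51 to 26.1%), 77.2% of marrow monocytes (64.2 to 87.3%) and 63.2% of blood monocytes (45.99 to 78.2%). Most monocytes of both kinds held Id2 at a high level, with 7 of 57 marrow and 9 of 38 blood monocytes listed at 0.

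Of the 10 cMoP above 10 TPM, 6 were the libraries whose labels name no flow cell. These held between 315 and 708 TPM of Id2, 6 of 6 above 10 TPM, whereas 4 of the 60 labelled cMoP libraries exceeded 10 TPM and their median was 0.78 TPM. Mean Id2 in cMoP was 526 TPM in those 6 and 11.1 TPM in the 60. The same 6 libraries held 8720 to 9971 genes above 1 TPM, and they carried the progenitor genes Mpo and Kit, with medians of 9557 and 18.1 TPM. What sets these libraries apart was not tested.

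**Figure D2:**
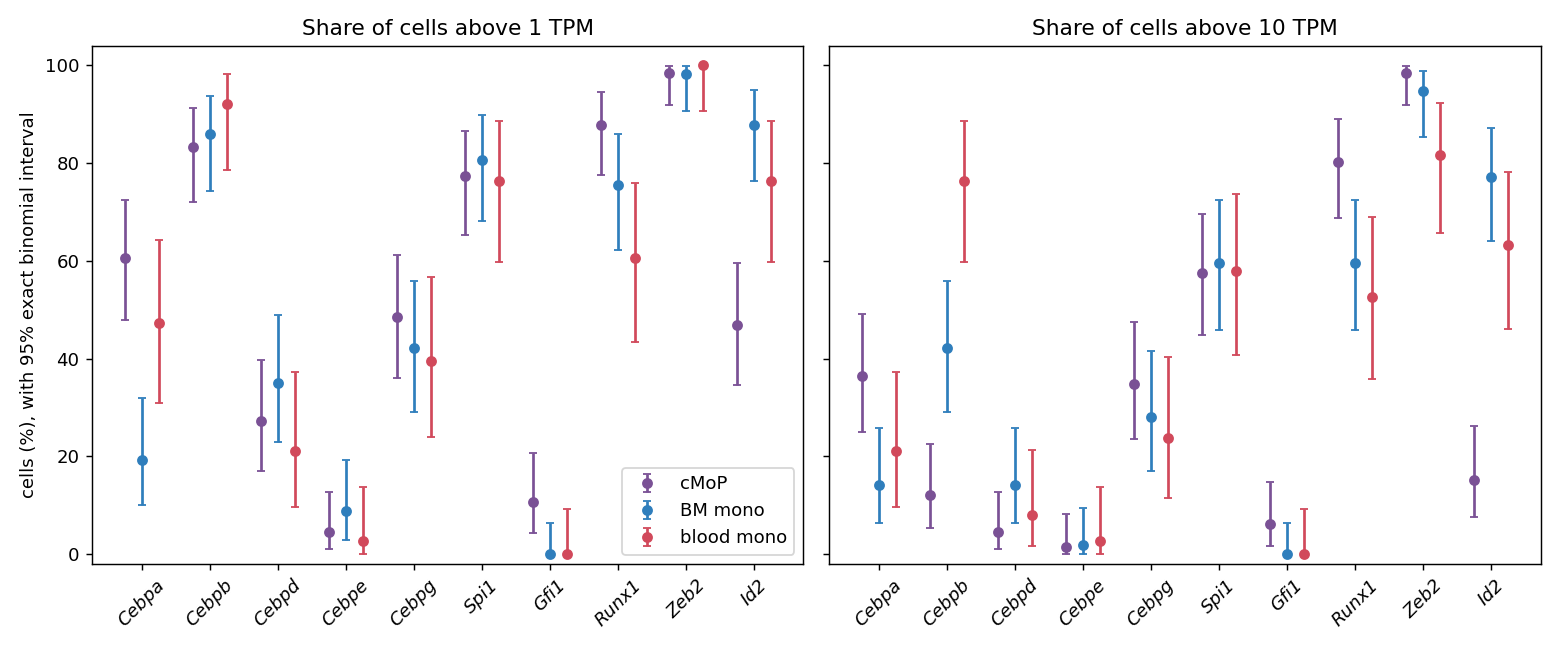
Share of cells of each population above 1 TPM (left) and above 10 TPM (right) for each member, with 95% exact binomial intervals that cover the counting of cells only. Cebpb differs between populations above 10 TPM, at 12.1%, 42.1% and 76.3%, and hardly above 1 TPM.

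The step from progenitor to marrow monocyte was described by the difference in mean log2(TPM + 1) over cells, marrow monocytes minus cMoP, and a size of 1 was taken as the limit. The pseudocount of 1 understates differences of low genes. Id2 was higher in marrow monocytes by 4.89, at 6.80 ± 3.55 (SD over 57 cells) in marrow monocytes and 1.91 ± 2.81 (SD over 66 cells) in cMoP, and the difference was 5.60 without the 6 cMoP libraries that lack a flow cell. Cebpa was lower by this measure, with a difference of -1.64, at 0.92 ± 1.96 in marrow monocytes and 2.56 ± 2.26 in cMoP. So 1 of 9 measured members was higher past the limit and 1 was lower, beside 3.94% and 30.8% of the 14003 measured genes. A gene counted as measured if 10% or more of the cells of some population held it above 1 TPM, which Cebpe did not reach.

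The other members stayed within the limit. Spi1 differed by 0.92, Cebpb by 0.68, Cebpd by 0.45, Zeb2 by -0.01, Cebpg by -0.06, Gfi1 by -0.49 and Runx1 by -0.85, and Cebpe, outside the filter, by 0.11. The median over the 9 was -0.01 and over all measured genes -0.45. Marrow monocytes also held fewer genes above 1 TPM per cell than cMoP. The part of gene number was not tested. The call for Cebpa rests on the scale, since it was -0.85 as the ratio of the mean TPM on the log2 scale and -0.57 with a pseudocount of 10. Spi1 passed the limit at 1.68 as that ratio, at 1.10 after median-ratio scaling and at 1.66 among cells with 4500 to 6000 genes above 1 TPM, 33 marrow monocytes and 17 cMoP. Cebpg had 1.74 in that gene range and 1.43 as the ratio, Runx1 0.02 as the ratio, and Zeb2 0.25 without both sets of cMoP libraries, so no direction is given for these 3. Cebpd passed the limit at 1.61 as the ratio, with a mean of 7.82 TPM in marrow monocytes and 1.88 TPM in cMoP.

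From marrow to blood monocytes, Cebpb and Cebpa were higher and Id2 lower past the limit. Cebpb was higher by 1.12, at 4.02 ± 1.70 (SD over 38 cells) in blood and 2.90 ± 1.55 (SD over 57 cells) in marrow monocytes. Cebpa was higher by 1.04, at 1.96 ± 2.44 in blood and 0.92 ± 1.96 in marrow monocytes. Id2 differed by -1.22, at 5.58 ± 4.25 in blood and 6.80 ± 3.55 in marrow monocytes, but with the ratio of mean TPM it was 0.05 and in cells of the matched gene range -0.38. Of 9 measured members 2 were higher and 1 lower, beside 1.96% and 9.66% of the 14003 measured genes, or 3.21% and 7.93% after median-ratio scaling.

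The remaining members differed by less between blood and marrow monocytes. Zeb2 differed by -0.92, Cebpd by -0.57, Runx1 by -0.17, Spi1 by -0.02 and Cebpg by 0.06, and Cebpe, outside the filter, by -0.11. Gfi1 was listed at 0 in both. In the matched gene range, with 14 blood and 33 marrow monocytes, Cebpa was higher in blood by 2.07, while Cebpb at 0.66 was within the limit and Zeb2 was at 0.17. With a pseudocount of 10, Cebpa was at 0.39 and Cebpb at 0.64. Runx1 was at 0.85 and Spi1 at 0.25 by the ratio of mean TPM, Cebpg at -0.49 in the matched gene range, so none of these has a fixed direction. Cebpd was past the limit at -1.47 by the ratio of mean TPM.

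**Figure D3:**
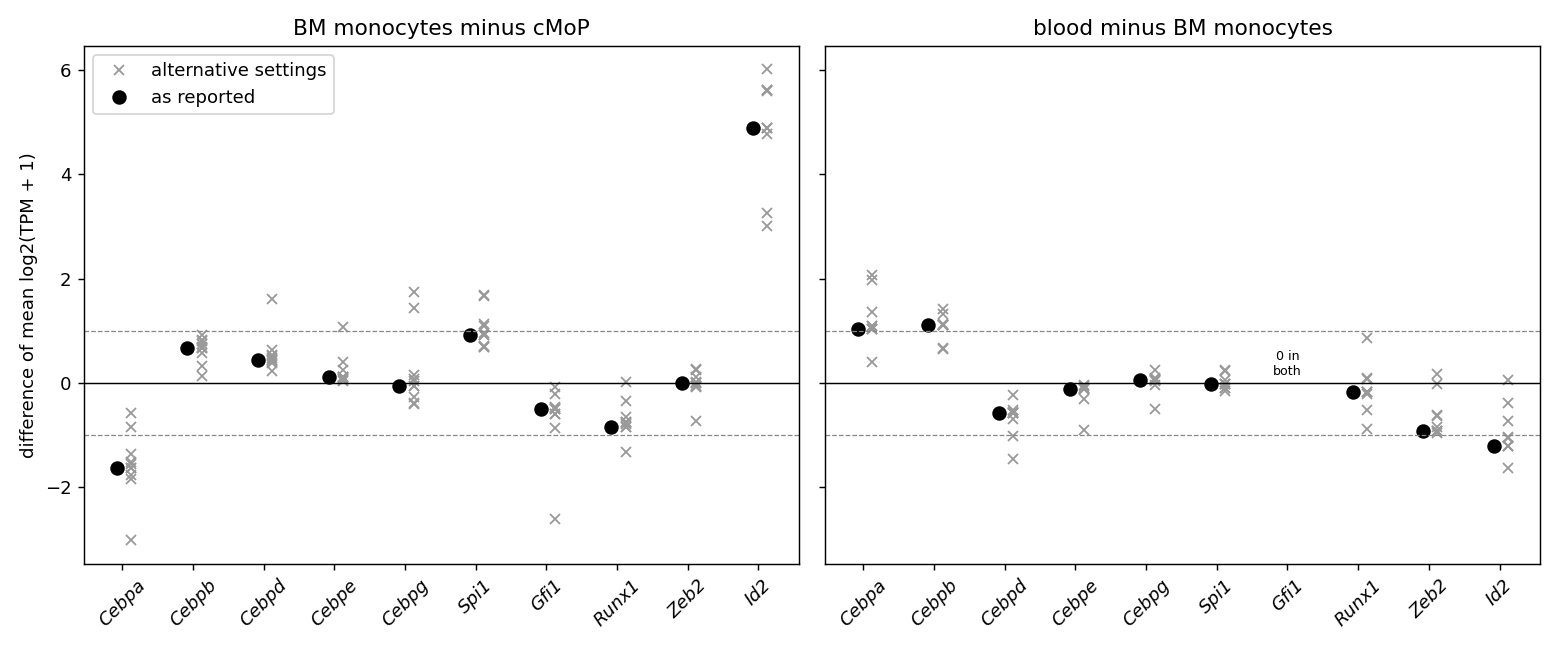
Difference of mean log2(TPM + 1) of each member between marrow monocytes and cMoP (left) and between blood and marrow monocytes (right). Black points are the values in the text, grey crosses the alternative settings and dashed lines the limit of 1; Id2 lies above the limit under all settings shown on the left.

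Among partners and rivals of the members, more genes were lower than higher in marrow monocytes relative to cMoP, as among all genes. Of 33 listed genes 27 were measured, 2 were higher and 12 lower past the limit, beside the 3.94% and 30.8% given above, and their median difference was -0.68. Myb, a factor of proliferating progenitors, differed by -4.68, Irf8, the factor that opposes the neutrophil branch, by -2.91, and Hdac1, a histone deacetylase, by -2.75. The 2 higher genes, named here for that reason, were Jun, an AP-1 subunit, at 1.34 and Nfil3, a leucine zipper repressor, at 1.01. Irf8 was still held above 1 TPM by 43 of 57 marrow monocytes, against 66 of 66 cMoP. Genes of dividing cells were lower at the same step, since the summed level of 20 S-phase genes had a median of 446 TPM in marrow monocytes and 4482 TPM in cMoP. From marrow to blood monocytes 2 of the 27 were higher and 3 lower, beside 1.96% and 9.66% of all measured genes, with Klf4, a monocyte factor, at -1.56, Atf4, a leucine zipper factor of the stress response, at -1.28, Batf3, a dendritic cell factor, at 1.23 and Hdac1 at -1.19.

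Granule, monocyte, receptor and neutrophil maturation genes are given against the same shares of all measured genes. Of all measured genes, 3.94% were higher and 30.8% lower past the limit in marrow monocytes relative to cMoP. The granule, monocyte and maturation genes were listed as cell type markers, and their control by the members was not tested. Of 6 granule genes, which encode the peroxidase and proteases of primary granules, 5 were lower in marrow monocytes than in cMoP, with differences of -12.90 for Mpo, -10.15 for Elane, -8.97 for Ctsg, -8.83 for Prtn3 and -3.42 for Prss57. Ctsc, the cathepsin that activates these proteases, was higher by 2.84, at means of 1297 TPM in marrow monocytes and 305 TPM in cMoP. Of 28 monocyte genes 23 were higher past the limit and 0 lower, with Ccl6 at 8.46, Ifitm6 at 7.19, Clec4a3 at 6.53 and Plbd1 at 6.52. Of 12 receptor and surface genes, 5 of which are also in the monocyte list, 5 were higher and 0 lower, led by Itgb2 at 4.33 and Itgam at 2.95, the chains of an adhesion receptor, and the other 7 were within the limit. Of the 15 neutrophil maturation genes 8 were measured, 3 of them higher and 2 lower, with Cd177 at 4.05 and Anxa3 at -3.89. From marrow to blood monocytes, where 1.96% of measured genes were higher and 9.66% lower, 0 of the 6 granule genes were higher and 2 lower, Elane at -1.31 and Prtn3 at -1.17. Of the 28 monocyte genes 4 were then higher and 6 lower, with Csf1r, the receptor for M-CSF, at 2.11 and the coagulation factor gene F13a1 at -2.93, while 18 were within the limit. Of the 12 receptor and surface genes 2 were higher and 0 lower. Of the 8 measured neutrophil maturation genes 0 were higher and 6 lower, with a median difference of -1.31.

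Within cMoP, no member reached a correlation of 0.3 in size with the granule genes from cell to cell before genes per cell were taken into account. Each member's Spearman rho was taken over cells against the mean log2(TPM + 1) of the 6 granule genes and of the 28 monocyte genes, and is given with no p, since the cells share a preparation and differ in genes per cell. Over 66 cMoP, rho with the granule genes ran from -0.25 for Id2 to 0.20 for Cebpe, which only 3 cells carried. As a partial rho given genes per cell, Id2 had -0.34 over 66 cMoP and -0.24 over the 49 outside both library sets. No share of all genes was taken for partial rho. Cebpa had 0.03, Spi1 0.09, Gfi1 0.05, and Cebpb, Runx1 and Zeb2 -0.15 each. Of the 5 members above 1 TPM in at least 50% of cMoP, 0 reached 0.3 in size, beside 15.4% of 5923 such genes. Over the 49 cMoP outside both library sets the range was -0.24 to 0.20, and 0 of 6 members reached 0.3 in size, beside 5.71% of genes.

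With the monocyte genes, 1 of these 5 members reached 0.3 in size over 66 cMoP, beside 16.1% of 5911 genes. It was Zeb2 at -0.31, which was -0.13 over the 49 cMoP, -0.18 without the libraries high in mitochondrial TPM and -0.19 as a partial rho given genes per cell. The monocyte genes themselves had a rho of 0.64 with genes per cell, and Zeb2 one of -0.26. Cebpb had 0.01 over all cMoP and 0.28 over the 49, where 0 of 6 members reached 0.3 in size, beside 5.79% of genes. As a partial rho given genes per cell, Cebpb had 0.18 over all cMoP and 0.305 over the 49. Cebpa had 0.08, Spi1 0.05, Runx1 -0.12 and Id2 0.17 over all cMoP.

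**Figure D4:**
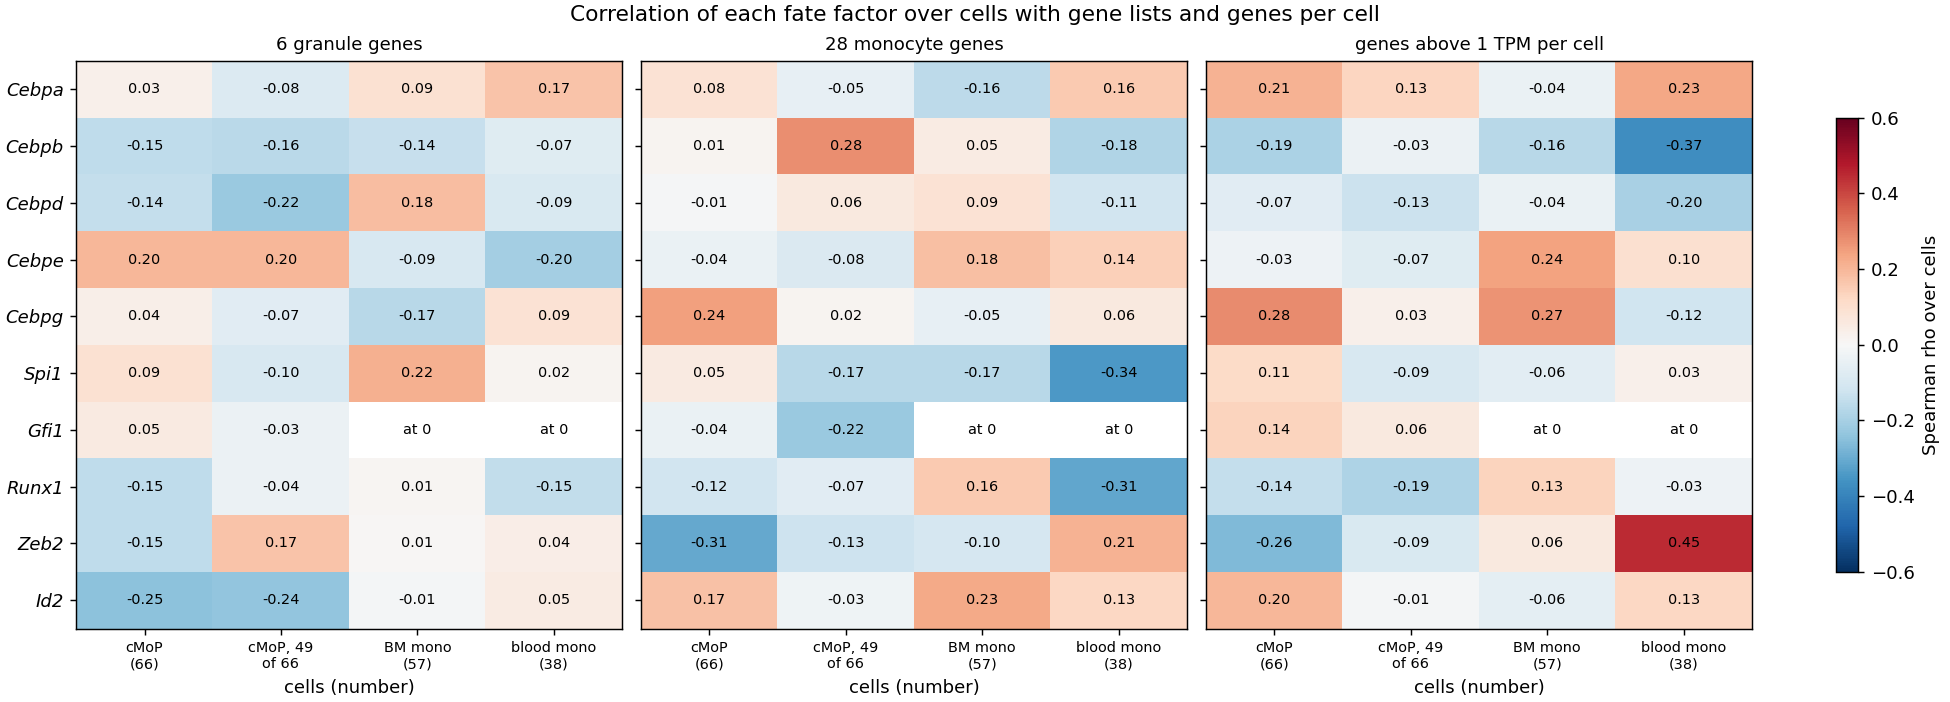
Spearman rho over cells of each member with the mean log2 level of the granule genes, with that of the monocyte genes and with the number of genes above 1 TPM per cell, in each population and in the 49 cMoP outside the libraries that stand apart. Most values lie near 0; Zeb2 in blood monocytes has 0.45 with genes per cell.

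Gene by gene, some pairs reached 0.3 in size over 66 cMoP, and no share of all gene pairs was taken to set beside them. Cebpb and Mpo had a rho of -0.35 over 66 cMoP and -0.47 over the 49. Cebpa and Cybb, a subunit of the phagocyte oxidase, had -0.31 and -0.43 over the same cells. Id2 and Plbd1, a lysosomal enzyme of monocytes, had 0.55 over 66 cMoP, but 10 cells carried Plbd1, and the value was 0.28 over the 49, where 2 did. Over all 66 cMoP, Cebpb was the only member at -0.3 or lower with any of the 6 granule genes, and Cebpe the only one at 0.3 or higher. These pairs were chosen for their size among 10 members and 34 genes.

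In marrow monocytes rho with the monocyte genes ran from -0.17 for Spi1 to 0.23 for Id2, and 0 of 5 members above 1 TPM in at least 50% of cells reached 0.3 in size, beside 5.04% of 3232 genes. In blood monocytes Spi1 had -0.34 and Runx1 -0.31, so 2 of 5 members reached it, beside 14% of 2870 genes. Spi1 kept -0.37 and Runx1 -0.32 as partial rho given genes per cell. With the granule genes 0 of 5 members reached it in marrow monocytes, beside 5.1% of genes, and 0 of 5 in blood monocytes, beside 8.39%. Granule genes other than Ctsc were rare there, since Mpo, Elane and Prss57 were listed at 0 in all blood monocytes, and Mpo was above 1 TPM in 2 of 57 marrow monocytes.

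**Figure D5:**
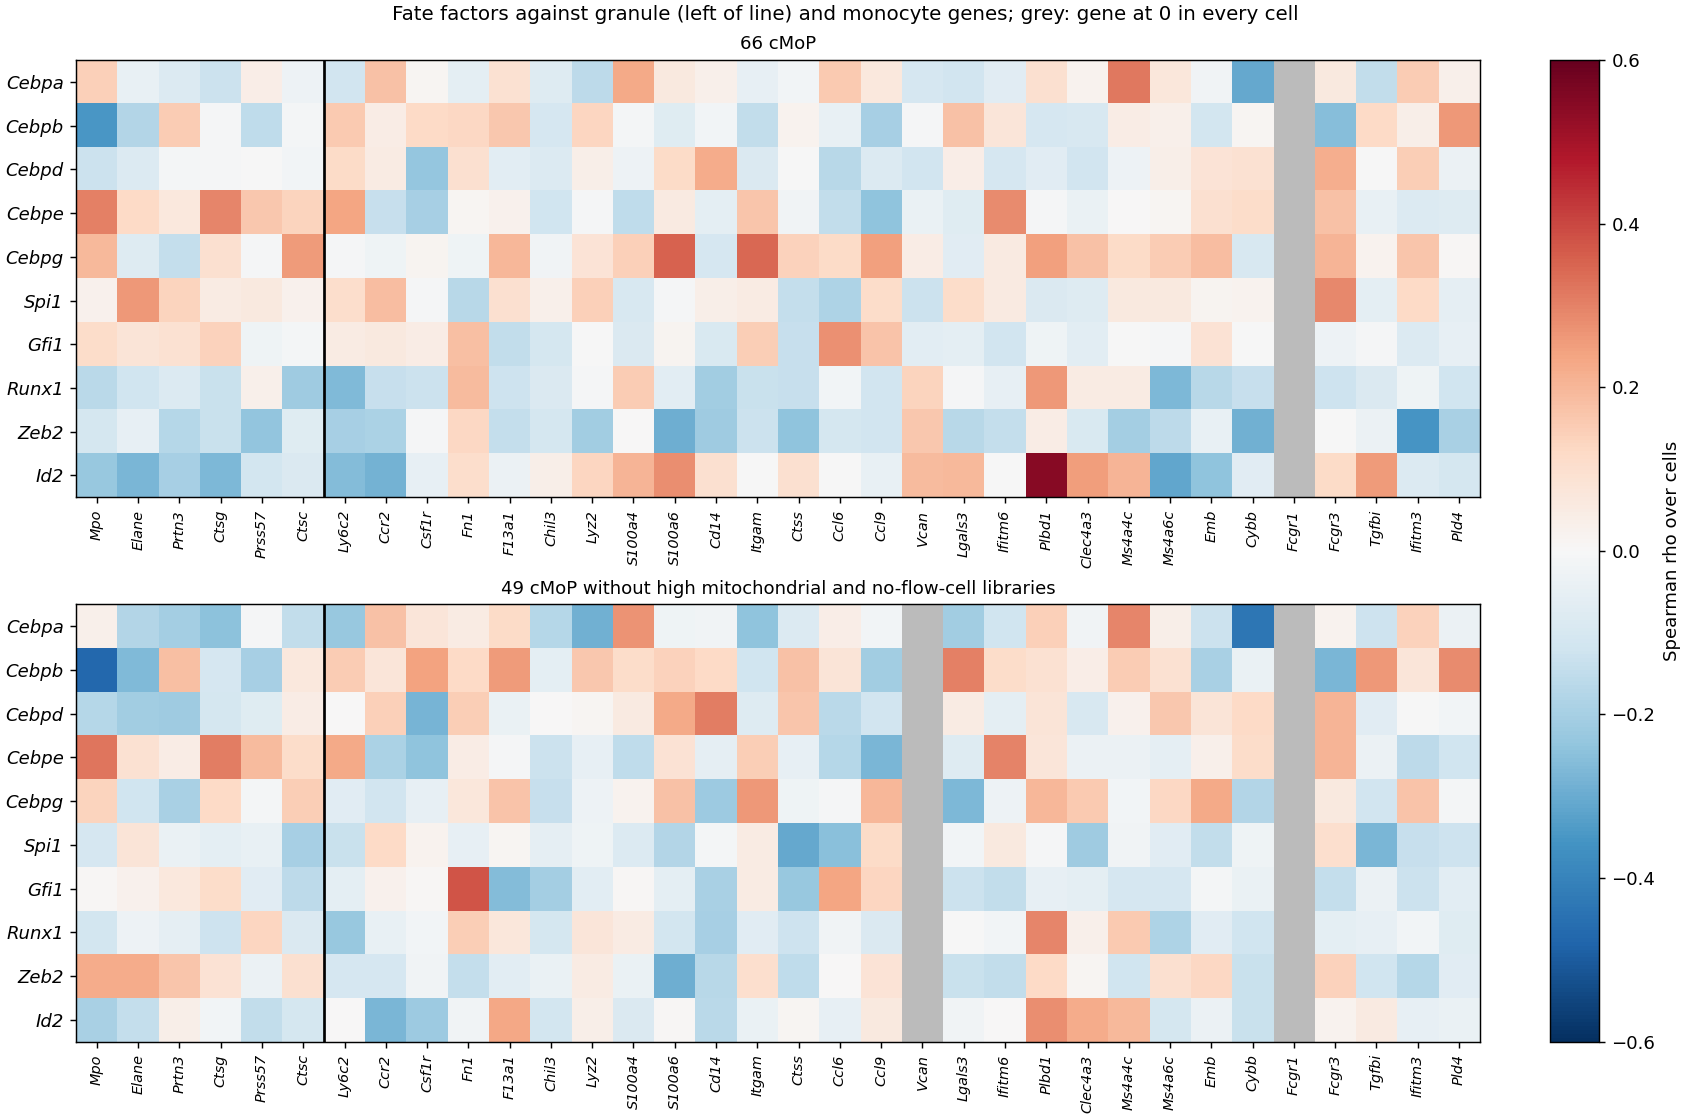
Spearman rho of each member with each granule gene (left of the line) and monocyte gene over 66 cMoP (top) and over the 49 cMoP outside the libraries that stand apart (bottom); grey marks genes at 0 in every cell. The pair of Id2 and Plbd1 is at 0.28 at the bottom, while Cebpb and Mpo reach -0.47.

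Correlations between the members were also weak in cMoP. Over 66 cMoP, 0 of 45 pairs reached a rho of 0.3 in size, the range was -0.22 to 0.24 and the median 0.01. Over the 49 cMoP 1 of 45 did, Cebpa and Zeb2 at 0.32, which had 0.13 over the 66. Cebpa and Spi1 had 0.21 and were both above 1 TPM in 33 cells, Cebpa and Cebpb had -0.01 and shared 32 cells. Over marrow monocytes the 36 pairs without Gfi1 ran from -0.20 to 0.23. In blood monocytes 3 of 36 pairs passed 0.3 in size. Of these, Cebpb and Zeb2 had -0.46 and Cebpa and Cebpg -0.43, over 38 cells. In the same cells Cebpb had -0.37 and Zeb2 0.45 with genes per cell, and their partial rho given genes per cell was -0.35; that of Cebpa and Cebpg was -0.42. The third pair, Cebpd and Cebpe at 0.39, rests on the 1 blood monocyte with Cebpe. The share of all gene pairs past 0.3 in size was not taken, so no difference between populations is read from these pair counts.

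The genes most like each member over 66 cMoP were found among 5175 genes above 1 TPM in at least 50% of cMoP. They were chosen as the 3 highest by rho, so their size partly reflects that choice, and no chance level was taken. The 49 cMoP are part of the 66 that chose the genes, so values over the 49 are not an independent check. For Cebpb they were Emp3, a membrane protein gene, at 0.44, Rbm47, an RNA-binding protein gene, at 0.40 and Macf1, a cytoskeletal linker, at 0.37, which were 0.63, 0.65 and 0.34 over the 49 cMoP. For Cebpa they were Uqcc3 at 0.47, Frmd8 at 0.45 and Tmem109 at 0.42, which were 0.50, 0.40 and 0.35 over the 49. For Spi1 they were the histone gene H2afv at 0.45, Zcchc17 at 0.45 and Rgcc at 0.44, of which the last 2 were 0.40 and 0.39 over the 49. For Runx1 they were Zscan26 at 0.41, Akna at 0.39 and Kcnn4 at 0.38, which were 0.36, 0.41 and 0.40 over the 49. For Zeb2 they were RP23-390I1.6 at 0.48, Grk4 at 0.46 and RP23-245C4.1 at 0.44, which were 0.31, 0.34 and 0.34 over the 49. H2afv was at 0.22 there with Spi1. The RP23 names are those of genomic clones.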

How the data were processed

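mRNA of single cells was read from 1 deposited table of TPM, made by the authors with RSEM 1.2.19 on GRCm38, per the submitters' processing notes; its aligner and annotation are not named in the labels. TPM keeps no read depth, so depth is unknown and genes above 1 TPM stood in for it. An exact 0 can be a lost or failed estimate. Columns were matched to cells by title, and groups taken from the labels. Differences were of mean log2(TPM + 1). Genes named were all 10 members, all granule genes, up to 4 per other list by size and the 3 most alike per member; Gm, Rik, mitochondrial, ribosomal protein and microRNA names were passed over in the last. Members and lists were chosen with earlier results of these data known. Functions were tested on simulated data. Alternatives covered pseudocounts, scaling, filters, libraries and correlation measures; leaving out the 1 blood library under 1% ribosomal protein TPM, and both cMoP library sets together in the comparison of levels, was added after seeing the data. Gene positions are from GENCODE M21. Python 3.11.15, numpy 2.4.6, pandas 2.3.3 and scipy 1.17.1 were used.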

Additional observations from a re-analysis of the deposited data

How the results depend on the processing

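The number of members past a log2 difference of 1 changed with the scale and the gene range, and did not change when the named sets of libraries were left out. For marrow monocytes against cMoP it was 2 as reported, 4 with a pseudocount of 0.1, 1 with a pseudocount of 10, 5 with the ratio of group means (one of them Gfi1, listed at 0 in marrow monocytes) and 4 in the range of 4500 to 6000 genes. Id2 was among them each time. The share of measured genes higher was 15.6% with the ratio of group means, 11.6% in that gene range, 2.16% with a pseudocount of 10 and 1.28% with no filter, against 3.94% as reported, and the share lower 23.9%, 12.8%, 12.04% and 9.97%, against 30.8%. For blood against marrow monocytes it was 3 as reported, 0 with a pseudocount of 10 and 1 in the same gene range, and the difference of Id2 changed sign to 0.054 with the ratio of group means. The shares of genes higher and lower were then 4.71% and 18.1% with a pseudocount of 0.1, 0.70% and 2.92% with 10, 15.997% and 23.5% with the ratio, 6.47% and 13.4% in the gene range and 0.633% and 3.12% with no filter, against 1.96% and 9.66%. Over cMoP, the 1 list correlation of 0.3 or more in size became 0 as a partial rho, with list ranks, without libraries high in mitochondrial TPM, without those lacking a flow cell, and without both. Over blood monocytes, the 2 became 1 with list ranks. The cause was not tested. Of the values for single members and shares of genes under the alternatives, 405 stayed on the same side of their limit and within their bounds (the SD over cells, the interval of a share of cells, 1.5 times a share of genes), 66 moved beyond them and 1, the Id2 value above, had passed the limit and changed sign. No paired analysis was possible because the labels carry no replicate numbers. The unknown depth limits any reading of low values.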
